A study of Homo sapiens with 6 samples.

Results

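The unfolded protein response and ATF4 genes described here are 32 transcripts chosen by symbol from a list, and all 32 were found among the 24432 gene symbols measured in each library. They were read as 14 chaperones and folding enzymes of the endoplasmic reticulum (ER), 4 genes of ER-associated degradation, 5 stress sensors and their transcription factors, and 9 genes of the ATF4 branch. RNA-seq covered 3 lenvatinib-resistant and 3 lenvatinib-sensitive libraries of cells labelled PLC/PRF/5, a human cell line grown from a liver cancer. The resistant cells, with the genotype label "Lenvatinib resistant" and the treatment label "Lenvatinib", had been passaged in lenvatinib, a kinase inhibitor of VEGF and FGF receptors. The labels give a start at 20 µmol/L, steps of 0.5 mmol/L and an end at 40 mmol/L, so the stated units do not match. The sensitive cells are labelled WT and control. Drug exposure and resistance go together in the labels and cannot be told apart. The labels do not say whether the resistant line is 1 clone, or whether replicates came from different cultures. The p-values thus set the group difference against the spread among these samples only, which may be technical.

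The ER folds secreted and membrane proteins, and unfolded protein there activates a set of sensors in its membrane. IRE1, encoded by ERN1, splices XBP1 mRNA, and ATF6 is cut in the Golgi. Both routes give transcription factors that raise chaperones and degradation genes. PERK, encoded by EIF2AK3, phosphorylates eIF2, which lowers translation in general while favouring that of ATF4. ATF4 then raises genes of amino acid supply, DDIT3 and the eIF2 phosphatase subunit PPP1R15A. Other eIF2 kinases reach ATF4 without ER stress. Hepatocytes secrete most plasma proteins and depend heavily on ER folding capacity.

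The value of 1 read, estimated from genes of low level, differed by 3.5% at most between libraries. Ratios far from 1 were left out of that estimate, so it cannot show a large difference in depth. Levels are in FPKM, which is per transcript length. Sensitive replicate 3 stood apart, at Pearson's r of 0.9515 and 0.9643 from the other sensitive libraries across genes, against 0.9947 between those, and counts of members are given with and without it. Between a resistant and a sensitive library r was 0.6796 to 0.7064. All 13 tested markers of hepatocytes and liver cancer were lower in resistant cells, against 32.5% of all tested genes called lower. Of these 13 markers, 7 were under 1 FPKM in every resistant library, so that the filter fixed their direction. The 14 listed markers summed to 1193 to 1384 FPKM in resistant libraries, against 5549 to 6583 FPKM in sensitive ones. Without the keratins KRT8 and KRT18 the sums were 12.9 to 28.4 FPKM in resistant libraries, against 2883 to 3175 FPKM in sensitive ones. HNF4A, the master regulator of hepatocyte identity, lay between 0.0381 and 0.0999 FPKM in resistant against 22.2 to 34.8 FPKM in sensitive libraries. KRT18, a keratin of simple epithelia and hepatocytes, was lower but remained high, at 844 to 980.2 FPKM in resistant and 1239 to 1576 FPKM in sensitive libraries. KRT8 fell further, to 335.7 to 388.9 FPKM in resistant against 1427 to 1832 FPKM in sensitive libraries. Fibroblast markers summed to at most 0.24 FPKM in resistant and 1.85 FPKM in sensitive libraries, endothelial markers to at most 0.348 and 0.185 FPKM, and the pan-leukocyte marker PTPRC was listed at 0 in all. The leukocyte list summed to 2.77 to 5.43 FPKM in resistant libraries, against 249.5 to 267.6 FPKM in sensitive ones, where LYZ, lysozyme, was 238 to 249 FPKM. Whether the resistant libraries come from the labelled line was not tested. Of the tested genes, 67.7% were called different between resistant and sensitive cells by limma, at a p under 0.05 after Benjamini-Hochberg adjustment over all 11694, so a single call carries little weight by itself.

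The promoters of several chaperones hold the ER stress response element, the sequence through which ATF6 and XBP1 act. It was searched as CCAAT, any 9 bases, then CCACG on either strand of the RefSeq windows (build GRCh38.p14) from 250 bases before to 50 after each gene's start. Of 31 members with a window, 5 held it, all of them chaperones, or 38.5% of 13 chaperone windows, against 0.0806% of all 27305 windows and 0.148% of those of tested genes. The 6 sites are shown with the fixed letters in capitals, read in the direction of the element, because the genes that carry them did not all move the same way.
HSPA5, chr9:125241391-125241409, minus strand gene: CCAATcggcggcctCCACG
HSP90B1, first site, chr12:103930216-103930234, plus strand gene: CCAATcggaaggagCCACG
HSP90B1, second site, chr12:103930321-103930339, plus strand gene: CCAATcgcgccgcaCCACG
PDIA6, chr2:10812853-10812871, minus strand gene: CCAATgagccgcagCCACG
CALR, chr19:12938384-12938402, plus strand gene: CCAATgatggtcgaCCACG
CRELD2, chr22:49918554-49918572, plus strand gene: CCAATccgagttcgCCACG

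Of these 5 genes HSPA5 was higher in resistant cells and the other four were lower. The windows of HSPA5 and of CALR, the gene of the 5 with the largest change, are given with the same letters in capitals, which read as the reverse complement in CALR.
HSPA5, chr9:125241294-125241593, minus strand: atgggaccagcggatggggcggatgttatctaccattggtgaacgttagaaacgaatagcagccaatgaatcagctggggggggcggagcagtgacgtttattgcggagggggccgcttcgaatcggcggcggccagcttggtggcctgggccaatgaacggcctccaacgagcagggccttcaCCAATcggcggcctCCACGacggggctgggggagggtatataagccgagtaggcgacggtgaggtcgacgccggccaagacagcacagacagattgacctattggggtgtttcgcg
CALR, chr19:12938359-12938658, plus strand: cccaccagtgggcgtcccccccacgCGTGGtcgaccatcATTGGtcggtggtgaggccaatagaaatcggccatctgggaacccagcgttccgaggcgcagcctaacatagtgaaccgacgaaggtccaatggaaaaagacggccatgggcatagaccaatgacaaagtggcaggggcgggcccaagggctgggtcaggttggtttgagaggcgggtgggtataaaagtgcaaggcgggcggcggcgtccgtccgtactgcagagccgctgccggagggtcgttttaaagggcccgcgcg
The element ended 47 bases before the start of HSPA5, while in CALR it lay on the opposite strand, 206 bases before the start. The short core CCACG alone, which is part of the element, was in 84.6% of chaperone windows against 37.5% of all windows and 4733 of the 9466 windows of tested genes. The other XBP1 element, TGACGTGG, whose reverse complement also holds CCACG, was searched on both strands and was in the window of HYOU1 and of no other member, against 0.762% of all windows.

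The C/EBP-ATF element, which ATF4 binds together with C/EBP partners, was searched as TGATGNAA on both strands. It was in the windows of CHAC1 and HERPUD1, both with the exact form TGATGCAA, or 6.45% of 31 member windows against 3.75% of all windows for TGATGNAA and 0.923% for TGATGCAA. Among windows of tested genes the shares were 1.61% and 0.433%. Windows of TRIB3, PPP1R15A, DDIT3, CEBPB and DDIT4, whose levels also set sensitive replicate 3 apart, did not hold it. A single short window was searched per gene, so a site further upstream or near another start would be missed. The sites are shown with 8 bases on each side because the levels of CHAC1 and HERPUD1 set that library apart.
CHAC1, chr15:40953254-40953277, plus strand gene, element on the opposite strand: ggcaggagTGATGCAAcggcaggg
HERPUD1, chr16:56931958-56931981, plus strand gene, element on the opposite strand: gcacgggcTGATGCAAcccgccgc

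The chaperones were lower in resistant cells with HSPA5 as the exception. Of 14 chaperones and folding enzymes 13 fell and 1 rose, against 32.5% of all tested genes called lower and 35.2% called higher, and their median log2 fold change was -1.01 against 0.08 for all tested genes. Without sensitive replicate 3 the counts were again 13 lower and 1 higher, with a median of -1.14, against 40.2% and 40.5% of all tested genes and a median of 0.01. Fold changes here and below are resistant over sensitive, on log2(FPKM + 1). Resistant and sensitive libraries did not overlap for any of the 14, against 74.4% of tested genes without overlap.

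HSPA5 encodes BiP, the ER chaperone that also holds the sensors inactive. Its level was 732, 708 and 641 FPKM in resistant replicates 1, 2 and 3, against 376, 381 and 371 FPKM in sensitive replicates 1, 2 and 3. Every resistant library stood above every sensitive one, and sensitive replicate 3 was like the others of its group. The means were 694 ± 47.3 FPKM in resistant and 376 ± 4.98 FPKM in sensitive libraries (SD, n = 3 each), a 1.84-fold difference with a log2 fold change of 0.88 (SE 0.0942, adjusted p = 0.000176 in limma), and it was called in each of the 14 alternatives. HSPA5 had the highest level of the 14 in each resistant library, whereas CALR and P4HB exceeded it in each sensitive library.

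The lectin chaperone branch, which retains glycoproteins until they fold, was lower. Calreticulin, CALR, had 197, 189 and 174 FPKM in resistant libraries, against 778, 860.1 and 990.1 FPKM in sensitive ones, a log2 fold change of -2.22 (SE 0.119, adjusted p = 6.43e-06). Its membrane-bound relative calnexin, CANX, had 159.5, 167 and 186 FPKM in resistant libraries, against 390.0, 362 and 235 FPKM in sensitive ones (log2 fold change -0.91, adjusted p = 0.00572). The change of CALR was thus larger than that of CANX, whose level in sensitive replicate 3 came close to the resistant libraries. HSP90B1, the ER member of the HSP90 family, had 159, 181 and 200.3 FPKM in resistant libraries, against 509, 374 and 252 FPKM in sensitive ones (log2 fold change -1.02, SE 0.251, adjusted p = 0.00972). It also had its lowest sensitive level in replicate 3, with a log2 fold change of -1.28 when that library was left out.

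All 4 protein disulfide isomerases of the list fell, against 32.5% of all tested genes called lower. PDIA6 had 66.8, 65.1 and 68.5 FPKM in resistant libraries, against 274, 264 and 276 FPKM in sensitive ones (log2 fold change -2.01, SE 0.0839, adjusted p = 2.19e-06). P4HB, which is also the beta subunit of collagen prolyl hydroxylase, had 333, 313 and 318 FPKM in resistant libraries, against 679.9, 741 and 1083 FPKM in sensitive ones (log2 fold change -1.34, adjusted p = 0.000542). PDIA3, which works with CALR and CANX on glycoproteins, fell by 1.31 and PDIA4 by 1.11 on the log2 scale (adjusted p = 1.78e-05 and 8.78e-05). The groups were far apart for each of these genes, and of the 4 P4HB varied most within the sensitive group, with replicate 3 highest.

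The partners of BiP differed in how far they fell. SDF2L1, which joins ER DnaJ proteins to BiP clients, showed the largest fall of the chaperones. It had 17.8, 15.8 and 14.5 FPKM in resistant libraries, against 109.6, 124 and 134 FPKM in sensitive ones, 7.65-fold lower in the means (log2 fold change -2.86, SE 0.123, adjusted p = 2.46e-06). The BiP co-chaperones DNAJC3 and DNAJB9 fell by 0.95 and 0.63 on the log2 scale (adjusted p = 0.0115 and 0.0139). CRELD2, a stress-induced ER protein that is also secreted, had 11.2, 10.4 and 11.2 FPKM in resistant libraries, against 20.9, 20.9 and 27.1 FPKM in sensitive ones (log2 fold change -0.99, adjusted p = 0.000554). HYOU1 and MANF differed least of the chaperones. HYOU1, the nucleotide exchange factor of BiP, had 149.8, 149 and 140.4 FPKM in resistant libraries, against 173, 185 and 262 FPKM in sensitive ones (log2 fold change -0.47, adjusted p = 0.0401). MANF, a secreted factor that binds BiP, had 88.9, 86.9 and 87.7 FPKM in resistant libraries, against 99.2, 110.4 and 121 FPKM in sensitive ones (log2 fold change -0.32, adjusted p = 0.0294). These calls were weak, since leaving out any resistant replicate or sensitive replicate 2 ended them, with adjusted p from 0.0575 to 0.119 for HYOU1 and from 0.0781 to 0.0953 for MANF, as did scaling to the geometric mean sample (0.0696 and 0.0635).

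**Figure D1:**
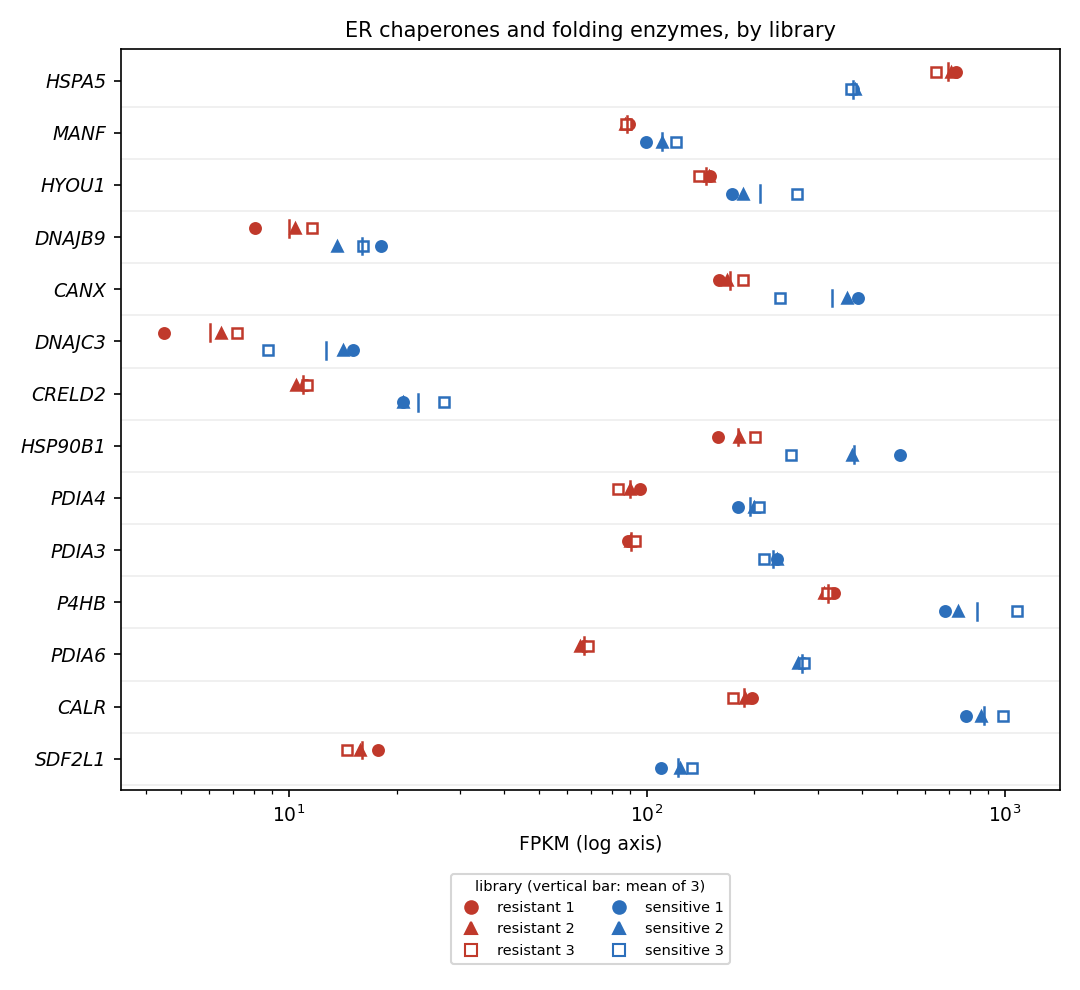
FPKM (log axis) of the 14 chaperones and folding enzymes in each library, with resistant above sensitive for each gene, ordered by log2 fold change, and the mean of 3 libraries as a vertical bar. HSPA5 is the gene whose resistant libraries, at 641 to 732 FPKM, lie to the right of the sensitive ones, and SDF2L1 at the bottom has the widest gap.

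Summed over the 14 genes, the level was 2112, 2081 and 2037 FPKM in resistant libraries, against 3853, 3883 and 4196 FPKM in sensitive ones. HSPA5 made up 34.7%, 34.0% and 31.5% of that sum in resistant libraries, against 9.77%, 9.81% and 8.85% in sensitive ones. Within a library, where scaling cancels, the ratio of HSPA5 to CALR was 3.71, 3.75 and 3.67 in resistant and 0.483, 0.443 and 0.375 in sensitive libraries. The makeup of the chaperone transcripts thus differed as well as their sum. Over the same libraries 24 plasma protein genes, cargo of the hepatocyte ER, summed to 45.7, 97.9 and 50.3 FPKM in resistant libraries, against 7964, 7996 and 8246 FPKM in sensitive ones. By their mean over the 6 libraries SERPINA1, AMBP and FN1 were the most abundant of these, which reflects the sensitive libraries. Of 21 tested genes of the list 20 fell and SERPINA3 rose, against 32.5% of all tested genes called lower and 35.2% called higher. However, 7 that fell were under 1 FPKM in every resistant library and SERPINA3 in every sensitive one, so that the filter fixed their direction. SERPINA1, alpha-1-antitrypsin, had 10.0, 20.9 and 8.66 FPKM in resistant libraries, against 2089, 2265 and 2401 FPKM in sensitive ones. The fall of the chaperones came with this much larger fall of plasma protein transcripts, and the part of one in the other was not tested. In bulk RNA a smaller share of cells that express a gene and less RNA per cell cannot be told apart.

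**Figure D2:**
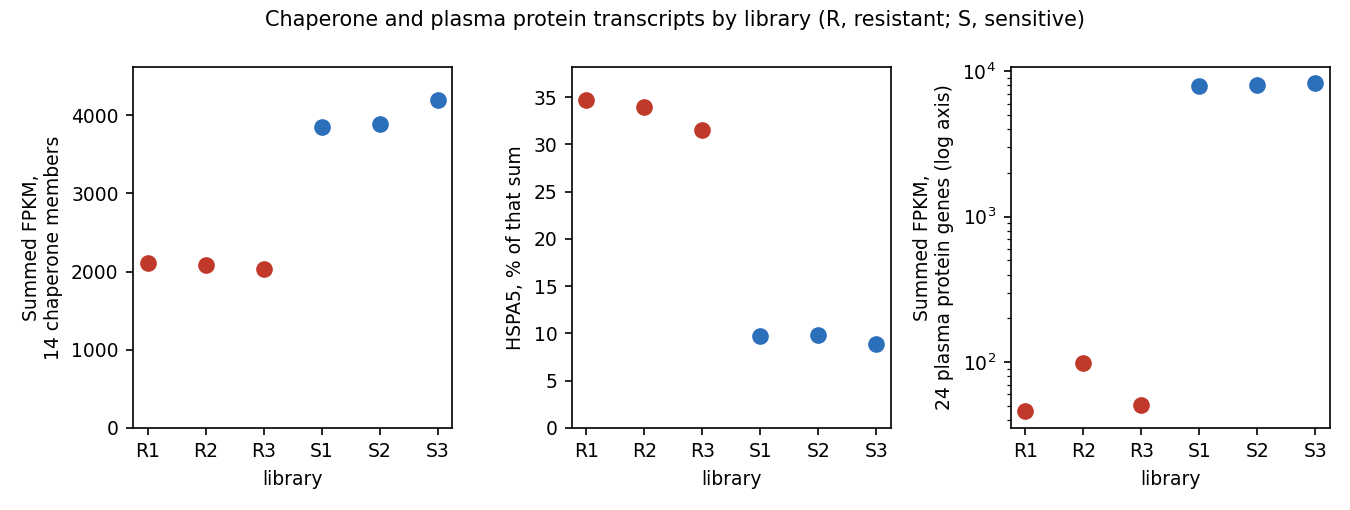
Summed FPKM of the 14 chaperone members, the percentage of that sum from HSPA5, and the summed FPKM of 24 plasma protein genes (log axis), 1 point per library with resistant (R) left of sensitive (S). The chaperone sum is 2037 to 2112 FPKM in resistant and 3853 to 4196 FPKM in sensitive libraries, and HSPA5 makes up 31.5% to 34.7% of it in resistant and 8.85% to 9.81% in sensitive libraries.

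The stress sensors did not move together. ERN1, which encodes IRE1, had 4.92, 5.56 and 4.61 FPKM in resistant libraries, against 2.08, 1.79 and 3.14 FPKM in sensitive ones (log2 fold change 0.87, SE 0.173, adjusted p = 0.00363). ATF6 had 17.7, 18.6 and 17.4 FPKM in resistant libraries, against 12.6, 10.9 and 8.44 FPKM in sensitive ones (log2 fold change 0.71, SE 0.154, adjusted p = 0.00532). Both rose without overlap between the groups. EIF2AK3, which encodes PERK, had 4.08, 4.55 and 4.29 FPKM in resistant libraries, against 7.33, 5.74 and 4.03 FPKM in sensitive ones, and did not pass the test (log2 fold change -0.31, adjusted p = 0.2). Sensitive replicate 3 was the lowest library, the groups overlapped, and without that library it was lower (log2 fold change -0.50, adjusted p = 0.00438). XBP1 had 176, 175 and 155 FPKM in resistant libraries, against 206, 206 and 386 FPKM in sensitive ones (log2 fold change -0.59, adjusted p = 0.073). The groups did not overlap, the high level of sensitive replicate 3 widened the spread, and without it XBP1 was called lower (log2 fold change -0.29, adjusted p = 0.00822). Values per gene do not separate spliced from unspliced XBP1, so the activity of IRE1 was not measured.

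CREB3L3 encodes CREBH, a liver-enriched relative of ATF6 that is released from the ER membrane and acts on acute phase and lipid genes. It had 0.118, 0.392 and 0.157 FPKM in resistant libraries, against 48.8, 45.5 and 33.8 FPKM in sensitive ones, and the log2 fold change was -5.15 (SE 0.177, adjusted p = 9.83e-07). The sensitive libraries alone took it past the filter on low values, which fixed its direction. The size of this change depends on the pseudocount, and with one of 0.1 the log2 fold change was -7.13.

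The degradation genes, which export misfolded proteins from the ER to the proteasome, were lower or did not pass the test. SYVN1, the ubiquitin ligase of this route, had 9.73, 11.0 and 12.2 FPKM in resistant libraries, against 30.5, 30.5 and 35.3 FPKM in sensitive ones (log2 fold change -1.47, SE 0.125, adjusted p = 5.65e-05). Exons of SYVN1 overlap FAU on the same strand, which reached 774 FPKM, and MRPL49 on the opposite strand, which reached 80.5 FPKM. The share of their reads in the SYVN1 value was not tested. SYVN1 works with a partner, SEL1L. SEL1L had 9.37, 10.8 and 13.8 FPKM in resistant libraries, against 15.0, 12.5 and 8.37 FPKM in sensitive ones (log2 fold change -0.05, adjusted p = 0.853). The ligase and its partner thus showed different changes, since the groups were apart for SYVN1 and overlapped for SEL1L. EDEM1, which trims mannose from misfolded glycoproteins, had 9.35, 9.76 and 10.5 FPKM in resistant libraries, against 15.2, 15.2 and 12.4 FPKM in sensitive ones (log2 fold change -0.49, adjusted p = 0.011, and 0.0503 without resistant replicate 1). HERPUD1, a scaffold of the same complex, had 65.0, 62.8 and 64.2 FPKM in resistant libraries, against 51.7, 54.2 and 138 FPKM in sensitive ones (log2 fold change -0.19, adjusted p = 0.666). Here sensitive replicate 3 set the direction, and without it HERPUD1 was called higher (log2 fold change 0.27, adjusted p = 0.00472). Of the 9 degradation and sensor genes 2 rose, 3 fell and 4 did not pass, against 35.2% of all tested genes called higher and 32.5% called lower. Without sensitive replicate 3 the counts were 3 higher, 5 lower and 1 not called, against 40.5% and 40.2%. CREB3L3, whose direction the filter fixed, is among those that fell in both counts. The shares that rose or fell with all 6 libraries were thus near or below those of all genes.

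Among the ATF4 branch, PPP1R15A, TRIB3, ATF5, DDIT3 and CEBPB were higher in resistant cells. Of 8 tested members 5 rose, none fell and 3 did not pass, with a median log2 fold change of 1.69, against 0.08 for all tested genes, of which 35.2% were called higher. ASNS, the ninth, was below the filter. Without sensitive replicate 3, 7 rose and 1 did not pass (median 1.77), against 40.5% of all tested genes called higher and 80.7% called in either direction, while 3 rose without resistant replicate 1, 3 without sensitive replicate 2 and 4 without resistant replicate 2. In those fits 3598, 3735 and 3468 of all 11694 tested genes were called higher, so 3 of 8 is close to the share of all genes. The difference between the branches was not tested, since the members were chosen with results known.

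PPP1R15A, the stress-induced subunit that directs a phosphatase to eIF2 and so restores translation, showed the largest rise. It had 462, 431 and 410.5 FPKM in resistant libraries, against 7.66, 8.68 and 39.7 FPKM in sensitive ones. The lowest resistant library was above the highest sensitive one, and sensitive replicate 3 was 4.86-fold above the mean of sensitive replicates 1 and 2. The means differed 23.2-fold, with a log2 fold change of 4.85 (SE 0.561, adjusted p = 0.00026) and of 5.57 without sensitive replicate 3. In resistant libraries PPP1R15A thus became 1 of the most abundant members, at a level per length above that of P4HB in each of them.

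TRIB3, a pseudokinase that restrains AKT and ATF4, had 154, 143 and 128 FPKM in resistant libraries, against 9.80, 10.1 and 56.1 FPKM in sensitive ones (log2 fold change 2.91, SE 0.621, adjusted p = 0.00515). DDIT3, which encodes the pro-apoptotic factor CHOP, had 275, 258 and 214 FPKM in resistant libraries, against 33.6, 37.1 and 167 FPKM in sensitive ones (log2 fold change 2.04, SE 0.58, adjusted p = 0.0177). For both genes the groups did not overlap, but sensitive replicate 3 lay far above the other sensitive libraries, 5.65-fold for TRIB3 and 4.73-fold for DDIT3. The DDIT3 call ended without resistant replicate 1 (adjusted p = 0.06), resistant replicate 2 (0.0551) or sensitive replicate 2 (0.059), and the log2 fold change was 2.78 with sensitive replicate 3 left out (adjusted p = 1.19e-07). Exons of DDIT3 overlap MBD6, which reached 19.0 FPKM, and MARS, not found under that symbol, both on the opposite strand. The share of their reads in the DDIT3 value was not tested. CEBPB, a C/EBP factor that pairs with ATF4 and CHOP, had 191, 169.8 and 166 FPKM in resistant libraries, against 47.7, 51.9 and 129.9 FPKM in sensitive ones (log2 fold change 1.34, adjusted p = 0.0146, and 1.80 without sensitive replicate 3). Its call ended without resistant replicate 1 (adjusted p = 0.0533) or sensitive replicate 2 (0.0509).

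ATF5, a relative of ATF4 under similar translational control, rose in a different pattern. It had 34.4, 31.4 and 31.97 FPKM in resistant libraries, against 9.08, 8.90 and 3.96 FPKM in sensitive ones (log2 fold change 2.09, SE 0.278, adjusted p = 0.000523). Sensitive replicate 3 was the lowest of the 6 libraries for this gene, at 0.44 of the mean of sensitive replicates 1 and 2. Exons of ATF5 overlap NUP62 on the opposite strand, which reached 26.9 FPKM, and the share of its reads in the ATF5 value was not tested.

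The ATF4 transcript itself differed little. It had 91.5, 86.2 and 84.5 FPKM in resistant libraries, against 61.4, 70.3 and 97.3 FPKM in sensitive ones (log2 fold change 0.22, SE 0.173, adjusted p = 0.295). The groups overlapped through sensitive replicate 3, and without it ATF4 was called higher (log2 fold change 0.41, adjusted p = 0.00165). ATF4 is controlled largely through its translation, which these data do not measure. DDIT4, an inhibitor of mTORC1, had 409, 375 and 400.5 FPKM in resistant libraries, against 169, 230.0 and 402 FPKM in sensitive ones. The groups overlapped, since sensitive replicate 3 was at the level of the resistant libraries (log2 fold change 0.65, adjusted p = 0.0857, and 1.00 with adjusted p = 0.000102 without that library).

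CHAC1 did not pass the test and ASNS was below the filter. CHAC1, which degrades glutathione, had 12.03, 11.3 and 13.0 FPKM in resistant libraries, against 11.5, 13.0 and 71.5 FPKM in sensitive ones (log2 fold change -0.83, adjusted p = 0.281, and -0.02 with adjusted p = 0.871 without sensitive replicate 3). Sensitive replicate 3 was high and the other 5 libraries lay close together. ASNS, asparagine synthetase and a standard ATF4 target, had 0.995, 1.27 and 0.933 FPKM in resistant libraries, against 0.671, 0.679 and 2.14 FPKM in sensitive ones, and was not tested. These levels are too low to compare.

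**Figure D3:**
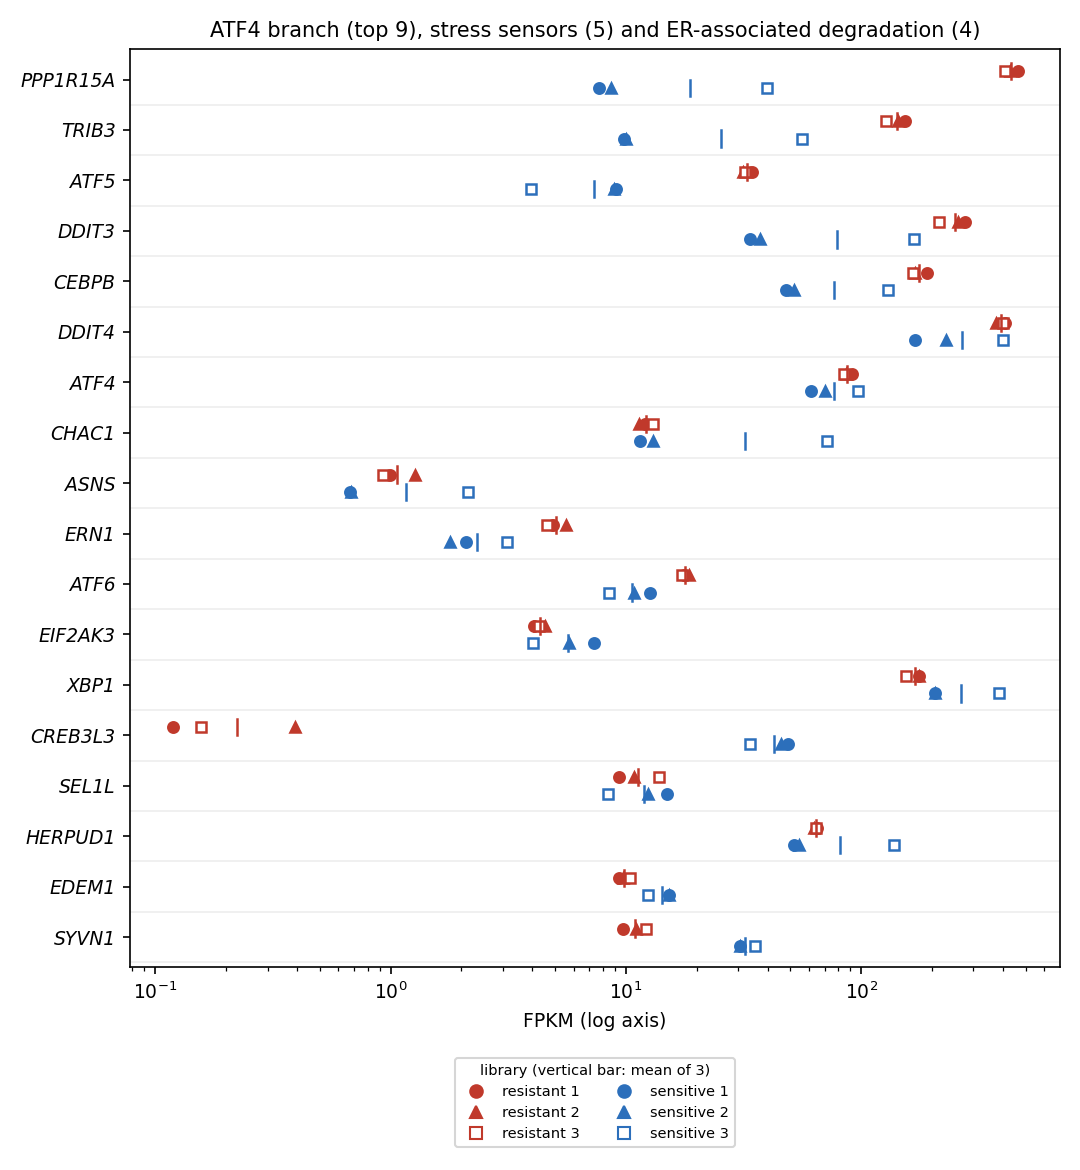
FPKM (log axis) of the 9 ATF4 branch genes, 5 sensors and 4 degradation genes in each library, with resistant above sensitive for each gene and the mean of 3 libraries as a vertical bar. The open blue square, sensitive replicate 3, lies apart from the other sensitive libraries for TRIB3, DDIT3, CHAC1, PPP1R15A and HERPUD1.

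Sensitive replicate 3 was at least 2-fold above the mean of sensitive replicates 1 and 2 for 6 of the 8 tested ATF4 branch genes, for HERPUD1 and for none of the 14 chaperones, against 4.91% of all tested genes. The median difference, on log2(FPKM + 1), was 1.76 for the ATF4 branch and 0.08 for the chaperones, against -0.09 for all tested genes. That library differed from the resistant ones in CHAC1, which was high in it, and in ATF5, which was low. It also stayed well below them for PPP1R15A and TRIB3, whose resistant means were 10.9-fold and 2.52-fold above it. The ratio of DDIT3 to ATF4 within a library was 3.01, 3.00 and 2.54 in resistant libraries, against 0.547, 0.528 and 1.72 in sensitive replicates 1, 2 and 3. That of PPP1R15A to ATF4 was 5.05, 5.0 and 4.86 in resistant libraries, against 0.125, 0.124 and 0.408 in the sensitive ones.

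**Figure D4:**
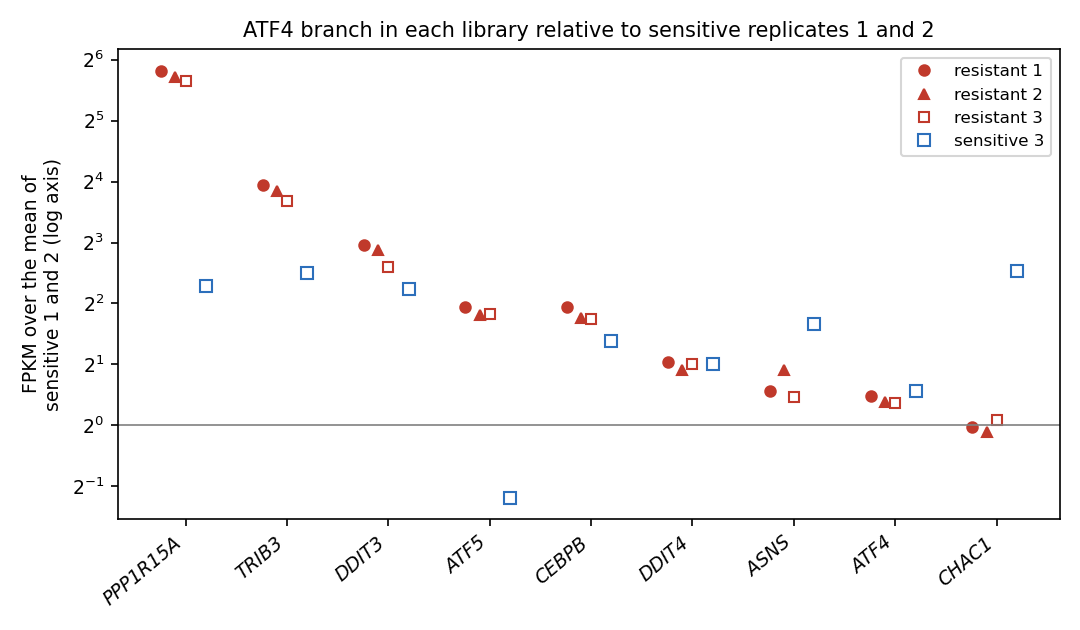
FPKM of the 9 ATF4 branch genes in the resistant libraries and in sensitive replicate 3, each divided by the mean of sensitive replicates 1 and 2 (log axis, line at 1). Sensitive replicate 3 is between the line and the resistant libraries for PPP1R15A, TRIB3, DDIT3 and CEBPB, above the resistant libraries for CHAC1, ASNS and ATF4, among them for DDIT4, and below the line for ATF5.

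**Figure D5:**
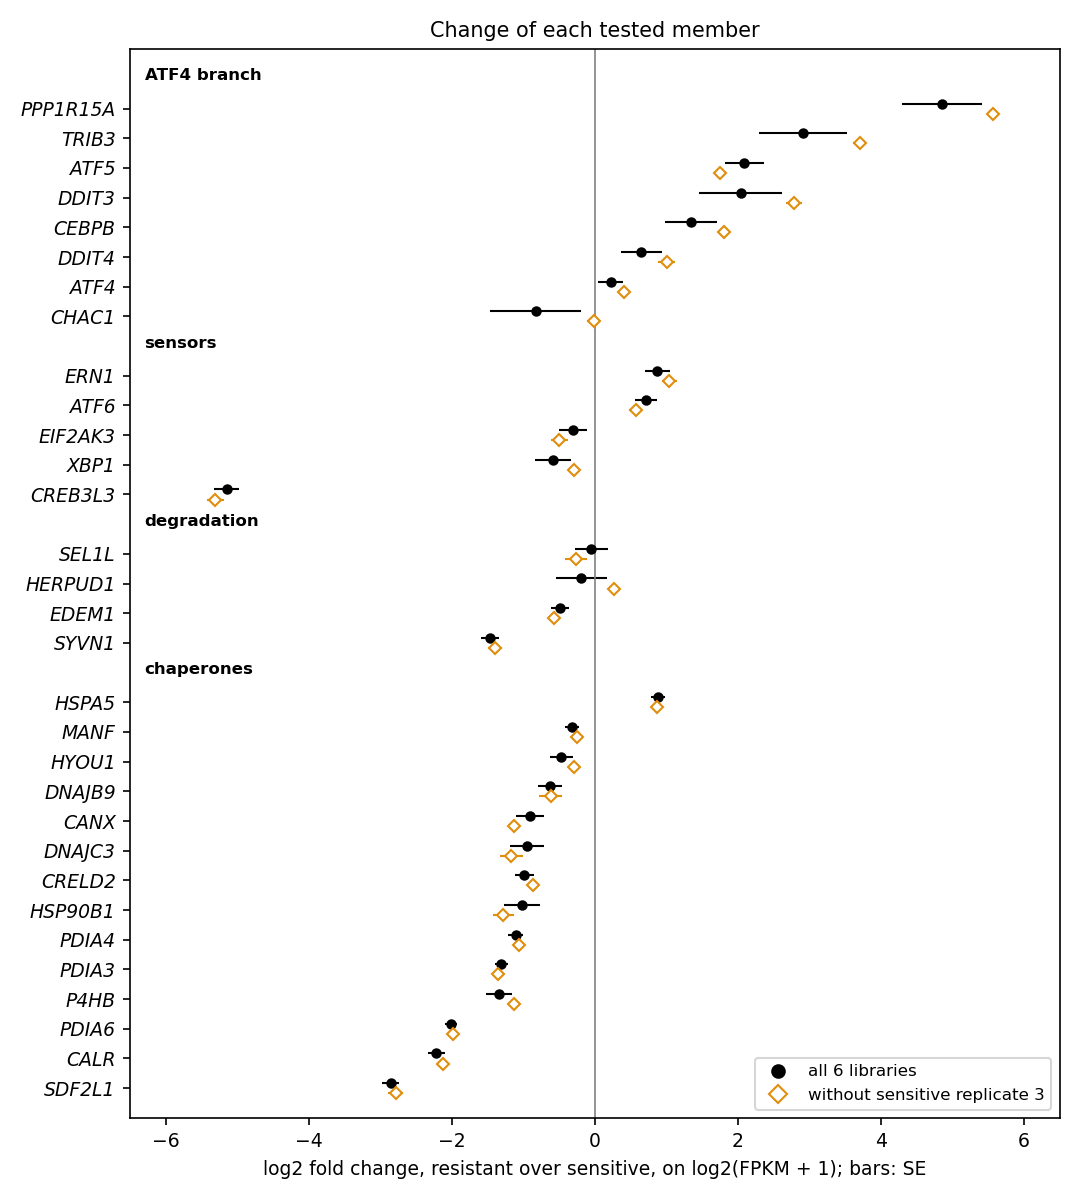
Log2 fold change of each of the 31 tested members, resistant over sensitive on log2(FPKM + 1), with its standard error, from all 6 libraries (black) and without sensitive replicate 3 (orange). Of the chaperones HSPA5 lies right of 0, and of the ATF4 branch CHAC1 lies left of it, at -0.83 and at -0.02 without that replicate.

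The other genes of the pathway, from lists chosen with earlier results known, are given by counts beside the shares of all tested genes. Of 24 tested further ATF4 targets 18 rose, 3 fell and 3 did not pass. Among all tested genes 35.2% were called higher and 32.5% lower. The median log2 fold change of the targets was 1.44. Of those that rose, 1 was under 1 FPKM in every sensitive library, so that the filter fixed its direction. Leaving out sensitive replicate 3, 19 of the targets rose and 3 fell, against 40.5% and 40.2% of all tested genes. ATF3, a stress-induced repressor, had 65.2, 60.5 and 47.9 FPKM in resistant libraries, against 4.45, 5.97 and 10.9 FPKM in sensitive ones (log2 fold change 2.93, adjusted p = 0.000118). The secreted glycoprotein STC2 rose by 2.86 and the glycine transporter SLC6A9 by 2.35 on the log2 scale. NUPR1, a stress-induced chromatin protein, went against them, at 0.946, 1.50 and 0.673 FPKM in resistant libraries, against 13.6, 15.2 and 35.9 FPKM in sensitive ones (log2 fold change -3.36, adjusted p = 0.00019). The serine synthesis enzyme PSPH and the lipoprotein receptor VLDLR also fell, by 1.28 and 0.54.

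Of 36 tested further ATF6 and XBP1 targets 3 rose, 24 fell and 9 did not pass, against 35.2% and 32.5% of all tested genes. The median log2 fold change of these targets was -0.60. Of those that fell, 1 was under 1 FPKM in every resistant library, so that the filter fixed its direction. Without sensitive replicate 3, 4 of the targets rose and 28 fell, against 40.5% and 40.2% of all tested genes. TXNDC11, a thioredoxin-like ER protein, had 8.91, 8.50 and 10.4 FPKM in resistant libraries, against 41.2, 39.9 and 44.5 FPKM in sensitive ones (log2 fold change -2.07, adjusted p = 7.31e-06). The translocon subunit SSR1 fell by 1.91, the ER calcium regulator WFS1 by 1.69 and the prolyl isomerase FKBP14 by 1.68. HSPA13, an HSP70-like ATPase, and ERP44, a thioredoxin-like retention factor, were among the 3 that rose, by 0.69 and 0.51 on the log2 scale.

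Of 15 genes for eIF2, its exchange factor eIF2B, its other kinases and its phosphatase 3 rose, 6 fell and 6 did not pass, against 35.2% of all tested genes called higher and 32.5% called lower. Without sensitive replicate 3, 5 rose, 8 fell and 2 did not pass, against 40.5% and 40.2%. EIF2AK1, the heme-regulated eIF2 kinase, fell by 1.45, the eIF2 subunit EIF2S3 by 1.35 and the eIF2B subunit EIF2B4 by 1.18, while EIF2B2, PPP1CB and EIF2B3 rose by 1.06, 1.06 and 0.57 on the log2 scale. Of 9 tested relatives and processing factors of ATF6 and IRE1 none rose, 6 fell and 3 did not pass, against 32.5% of all tested genes called lower. Without sensitive replicate 3 none of the 9 rose and 8 fell, against 40.2% called lower. CREB3L1, CREB3, CREB3L4 and ATF6B, all membrane-bound factors of the ATF6 type, fell by 1.31, 1.05, 0.82 and 0.59. CREB3L1 was at 0.0571 FPKM or less in resistant libraries and passed the filter because of its sensitive levels.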

How the data were processed

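The authors deposited 1 table per library with a value per gene symbol, in a unit inferred from the values as FPKM. The submitters' processing notes name cutadapt and HISAT2, and the versions, counting program, annotation, build and strand setting were not given in the sources used here. Without strand, overlapping genes cannot be told apart, and exons of 16 of the 32 members overlap a gene on the opposite strand, and those of 5 a gene on the same strand, in GENCODE release 29. Groups and replicate numbers came from the sample titles. The input was 1.5 µg total RNA a sample, per the labels' protocols.

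Genes that reached 1 FPKM in 3 or more samples were tested with limma 3.58.1 (limma-trend, R 4.3.3) on log2(FPKM + 1), all 6 samples in 1 fit of group, with Benjamini-Hochberg adjustment over 11694 genes and calls under 0.05. The pseudocount of 1 understates the change of low genes. The fit was tested on simulated data. Alternatives were scaling to the geometric mean sample or quantile normalization, limma without a trend, a replicate block, a 0.1 pseudocount, filters of none and of a mean of 5 FPKM, testing for changes beyond 1.5-fold, and each library left out with the tested genes kept.

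The members and lists were chosen with earlier results of these data known, so no list is tested. Named genes are all members, the 4 called genes of largest change in each other pathway list, the 3 most abundant of each marker list that a result turns on, and the genes behind a count of 3 or fewer, of which 1 is not reported here. Promoters to print were the called gene of largest change with an element in each branch, which gave CALR, and the HSPA5 window and the single sites were added after the values were seen. HNF4A and PTPRC were also added then. Protein sequences are not analysed here. Python 3.11.15, pandas 2.3.3, numpy 2.4.6 and matplotlib 3.10.9 were used.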

Additional observations from a re-analysis of the deposited data

How the results depend on the processing

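Of 31 tested members, 14 kept direction and call in every one of 14 alternatives. Over 433 single values 31 lost and 9 gained a call with the sign kept, and 3 changed sign. HERPUD1 changed sign without sensitive replicate 3 (0.27, in a range of -0.43 to 0.27 over libraries left out), where it also gained a call. SEL1L, never called, changed sign without resistant replicate 1 (0.06) and without sensitive replicate 1 (0.12, in a range of -0.27 to 0.12). Testing against a 1.5-fold change left 7 chaperones lower, 3 ATF4 members higher, none of the degradation and sensor genes higher (0), and 2217 genes higher and 2140 lower of all tested. A mean of at least 5 FPKM, which tests 7396 genes, left 1 degradation or sensor gene higher, since ERN1 was then not tested. That filter gave 2465 and 2508 genes higher and lower, against 4117 and 3803. Quantile normalization called 5 degradation and sensor genes lower. Leaving out each library gave 3 to 7 ATF4 members higher, 2 to 5 degradation and sensor genes lower and 11 to 13 chaperones lower. Deviations of same-numbered libraries from their group means correlated at -0.422, 0.072 and -0.228, and those of differently numbered ones at -0.155 to 0.346. Deviations from a mean of 3 libraries are tied to one another, so these values cannot show whether replicate numbers pair the samples. The fit with a replicate block called 5 ATF4 members higher, 11 chaperones lower, and 3716 and 3477 genes higher and lower. The median log2 fold change of all genes was 0.02 under quantile normalization and under scaling to the geometric mean sample, against 0.08. Levels near 1 FPKM, such as ASNS, are too low to compare.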

Other observations

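Heat shock genes of the cytosol and mitochondria, many of which answer to HSF1, were lower as well. Of 11 tested genes 9 fell, none rose and 2 did not pass, with a median log2 fold change of -1.94, against 32.5% of all tested genes called lower and a median of 0.08. Without sensitive replicate 3 all 11 fell, against 40.2% of all tested genes. HSPA8, the constitutive cytosolic HSP70, had 100.3, 106 and 120.5 FPKM in resistant libraries, against 1072, 1062 and 635 FPKM in sensitive ones (log2 fold change -3.04, adjusted p = 2.37e-05 in limma). The inducible co-chaperone DNAJB1 had 7.09, 7.04 and 7.05 FPKM in resistant libraries, against 46.7, 49.4 and 119 FPKM in sensitive ones (log2 fold change -3.04, adjusted p = 0.000237). HSPA1A and HSPA1B, near-identical copies between which reads cannot be divided with certainty, fell by 3.11 and 3.14 on the log2 scale. Sensitive replicate 3 was the highest library for HSPA1A, HSPA1B and DNAJB1, by 2.48-fold to 3.37-fold over the mean of sensitive replicates 1 and 2, and the lowest sensitive one for HSPA8.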
